A study of Mus musculus with 2 samples.

Results

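The small heat shock proteins are chaperones built around an alpha-crystallin domain. The genes described here are Hspb1, Hspb2, Hspb3, Hspb6, Hspb7, Hspb8 and Cryab, chosen by name from the gene column of the array files. These 7 genes were represented by 8 probes on 17 spots per array, and all 7 genes and 8 probes were tested, out of 23419 genes and 29274 probes in all. Total RNA of dissected mouse ureters at stage E18.5 (strain NMRI) was hybridised to 2 Agilent 2-colour arrays, each holding cDKO and control RNA. The cDKO embryos were heterozygous for a Cre allele of Tbx18 (cre/+) and carried Tbx2 as fl/fl together with Tbx3 as fl/fl. The controls were Tbx18 +/+, with fl/? at Tbx2 and fl/? at Tbx3, so that both groups carried floxed alleles, the controls had no Cre, and 1 Tbx18 allele differed as well. Replicate 1 held male RNA with the cDKO RNA in AlexaFluor647, and replicate 2 held female RNA with the cDKO RNA in AlexaFluor555. A replicate is thus also a sex and a dye orientation, and the 3 cannot be told apart. The labels do not give the number of embryos per RNA. The p-values rest on these 2 arrays and on the variance pooled over probes, and not on a spread between embryos. The comparison addressed which transcripts differ in ureters whose mesenchyme was to lose the T-box transcription factors TBX2 and TBX3, with Cre driven from Tbx18, a gene of the ureteric mesenchyme.

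Small heat shock proteins bind partly unfolded proteins without using ATP and hold them until ATP-driven chaperones refold them or until they are degraded. Several of them are abundant in muscle, where they attach to actin, desmin filaments and Z-discs. The ureter is a tube of smooth muscle around a urothelium, and HSPB6 (HSP20) is known from adult smooth muscle as a target of the cyclic-nucleotide-dependent kinases during relaxation.

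In each channel, 72.1% to 81.6% of the gene spots passed the flag for signal well above background, and the number of arrays limits the precision. The genes to be deleted did not have less signal under the cDKO label. The mean log2 ratios of cDKO over control were 0.74 for Tbx2 and 0.66 for Tbx3, and 0.81 for Tbx18. Each passed the test as higher, with adjusted p-values (limma) of 0.0273, 0.0305 and 0.00778. A probe outside the deleted part of a gene checks nothing, and the files do not say where the deletions lie. The group is therefore called labelled cDKO where a direction is drawn. The Y-linked gene Ddx3y gave a processed signal of 2851 in the male-array cDKO RNA and 360 in the female-array cDKO RNA, against 4236 in the male-array control RNA and 4.46, not well above background, in the female-array control RNA. The RNA labelled female cDKO thus carried Y-linked signal, and the values of the 7 genes are given for the male array alone as well as for both arrays. Smooth muscle markers were bright in the control RNA, with summed processed signals of 186751 and 119662 in the cDKO RNA of the male and female arrays and 876000 and 541174 in the control RNA.

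The DNA before the transcription starts is shown for 4 genes, because heat shock factor, T-box and muscle motifs could lie there. RefSeq's promoter table (GRCm38.p6) held 6 starts for 5 of the 7 genes. Hspb2 and Cryab had no entry. Each sequence below is the 250 bases before the start, written 5′ to 3′ on the strand of the gene. Capitals mark, on either strand, the heat shock element core GAANNTTC, the TATA box TATAAA, the T-box core AGGTGT and the MEF2 core TATTTATA. Hspb6 is shown at the second of its starts, chr7:30553051-30553300 on the plus strand. Hspb7 lies at chr4:141420529-141420778 on the plus strand, Hspb3 at chr13:113663677-113663926 on the minus strand and Hspb1 at chr5:135887669-135887918 on the plus strand.
Hspb6: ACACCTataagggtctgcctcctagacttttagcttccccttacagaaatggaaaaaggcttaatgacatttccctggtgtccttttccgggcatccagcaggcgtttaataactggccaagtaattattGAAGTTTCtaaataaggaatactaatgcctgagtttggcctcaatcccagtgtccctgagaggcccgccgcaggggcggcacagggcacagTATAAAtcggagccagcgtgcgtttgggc
Hspb7: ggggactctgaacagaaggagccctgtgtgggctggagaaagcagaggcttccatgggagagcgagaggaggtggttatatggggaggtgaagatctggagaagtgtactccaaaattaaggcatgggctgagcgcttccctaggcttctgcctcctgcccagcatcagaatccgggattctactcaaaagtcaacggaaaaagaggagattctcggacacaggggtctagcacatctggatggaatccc
Hspb3: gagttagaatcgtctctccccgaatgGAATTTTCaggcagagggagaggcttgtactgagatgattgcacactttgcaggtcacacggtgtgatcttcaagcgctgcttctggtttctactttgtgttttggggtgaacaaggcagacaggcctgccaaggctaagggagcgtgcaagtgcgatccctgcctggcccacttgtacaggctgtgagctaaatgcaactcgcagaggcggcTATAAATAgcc
Hspb1: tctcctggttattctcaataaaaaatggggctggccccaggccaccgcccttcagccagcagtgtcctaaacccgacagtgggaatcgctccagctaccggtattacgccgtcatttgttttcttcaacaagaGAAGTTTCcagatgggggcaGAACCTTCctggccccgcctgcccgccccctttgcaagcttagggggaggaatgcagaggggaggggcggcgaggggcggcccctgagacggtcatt

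The heat shock element core, an inverted pair of the half-site that trimeric heat shock factors read, was in 3 of the 6 promoters and in 6.69% of all 32851 RefSeq promoters of this length. It lay 97 and 117 bases before the start in Hspb1, 120 bases before it in Hspb6 and 224 bases before it in Hspb3. The everted pair TTCNNGAA was in 0 of the 6 and in 7.17% of all promoters. The T-box core lay 250 bases before the second Hspb6 start, on the strand opposite to the gene, in 1 of the 6 promoters and in 11.8% of all. The longer T-box sequence AGGTGTGA was in 0 of the 6 and in 1.12% of all promoters, and the CArG box that serum response factor binds in smooth muscle genes was in 0 of the 6 and in 1.47% of all. TATA boxes lay 29 bases before the start in Hspb6 and 11 bases before it in Hspb3, where the match overlaps the single MEF2 core. They were in 2 of the 6 promoters and in 12.4% of all, and the MEF2 core was in 1 of the 6 and in 1.56% of all. The E-box CANNTG, which was not capitalised, was in 4 of the 6 and in 66.2% of all, and it was the one searched motif found in the promoters of Hspb7 and Hspb8. The first Hspb6 start held none of the searched motifs. A match is a description of the letters and not of a bound site, and a missing match says nothing about the factor.

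Of the 7 genes, Hspb6, Hspb2 and Hspb7 fell in labelled cDKO ureters, and Hspb8, Hspb3, Hspb1 and Cryab did not pass the test. Hspb6 was 3.94-fold lower, and Hspb2 and Hspb7 were 1.57-fold and 1.56-fold lower. The counts were 3 lower and 0 higher of 7, where 2.27% of all genes were called lower and 2.18% higher (limma, Benjamini-Hochberg over all 29274 probes, threshold 0.05). All 7 genes had a negative log2 ratio on both arrays, as did 28.0% of all genes. This count was 6 of 7 from the deposited value table and 4 of 7 with median centring, and Hspb3 entered it through the control channel, where it is brighter. The median of the 7 mean log2 ratios was -0.42, beside 0.0045 over all genes. An unadjusted p below 0.05 (limma) was reached by 5 of the 7, Hspb3 among them, and by 3751 of all 23419 genes. A filter in both channels leaves out Hspb3. With it, 4 of 6 members and 3672 of all genes reached this p. The median was then -0.53, beside -0.00044 over all genes.

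**Figure D1:**
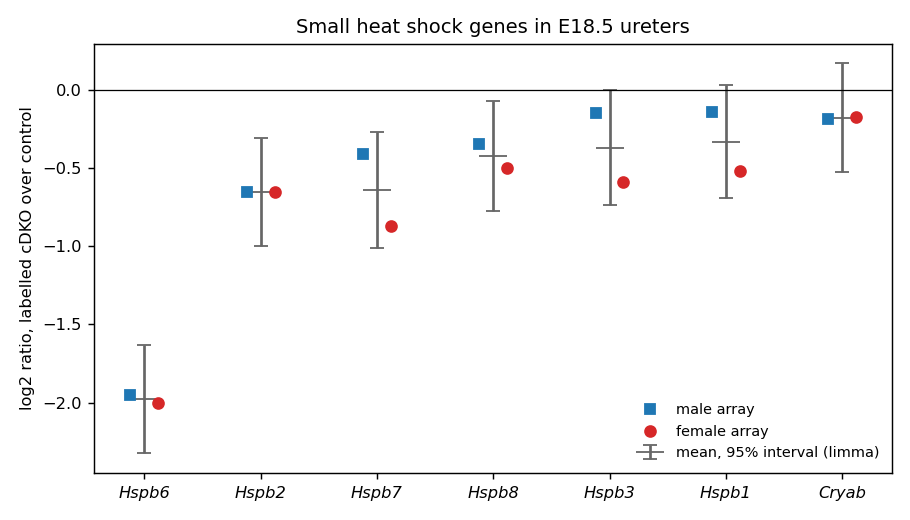
Log2 ratio of labelled cDKO over control (y axis) for each of the 7 genes (x axis), with the male array as a square, the female array as a circle, and the mean with its 95% interval from limma as a bar. Hspb6 lies near -2 on both arrays, and the intervals of Hspb1 and Cryab cross 0.

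Hspb6 encodes HSP20, whose phosphorylation accompanies the relaxation of smooth muscle. Its probe lies at chr7:31340398-31340457 (mm9). It gave processed signals of 11734 and 7714 in the cDKO RNA of the male and female arrays, against 44544 and 29872 in the control RNA. The cDKO RNA was the lower one on each array, and both cDKO RNAs were below both controls. Here and for the other genes, overlap compares RNAs across arrays, and no scaling between arrays was applied. The share of all genes whose groups do not overlap was not counted. The log2 ratios were -1.95 (male array) and -2.00 (female array), with a mean of -1.98 ± 0.035 (SD, n = 2) and a 95% interval of -2.32 to -1.63. The adjusted p from limma was 1.24e-06. The mean ratio put Hspb6 at 25.4% of control. It was at least 2-fold lower on both arrays, which held for 1 of the 7 genes and for 0.726% of all genes. In the order of all 23419 genes by mean log2 ratio, Hspb6 was at place 67 from the lowest.

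**Figure D2:**
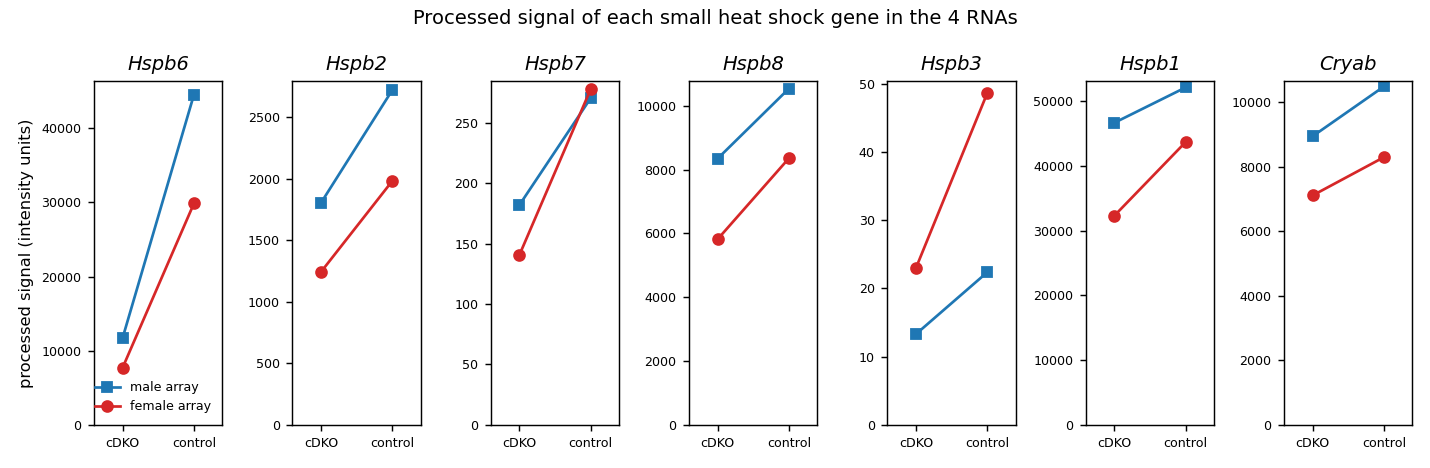
Deposited processed signal (y axis, intensity units, each panel with its own scale starting at 0) of each gene in the cDKO RNA (left) and the control RNA (right), with squares for the male array and circles for the female array joined by lines. Every line slopes up to the control RNA, and across arrays the groups overlap for Hspb1, Hspb3 and Cryab.

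Hspb2 and Hspb3 are muscle members whose proteins form a complex with each other, and HSPB2 is also known to bind the myotonic dystrophy protein kinase. The Hspb2 probe lies at chr9:50559211-50559270 (mm9) and gave 1804 and 1242 in the cDKO RNA of the male and female arrays, against 2720 and 1982 in the control RNA. Both cDKO RNAs were below both controls. The log2 ratios were -0.66 (male array) and -0.65 (female array), with a mean of -0.66 ± 0.0020 (SD, n = 2), a 95% interval of -1.002 to -0.31 and an adjusted p of 0.0305 (limma). Under other processing the direction was kept, but the call was lost in 4 of 9 alternatives.

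The Hspb3 probe lies at chr13:114453236-114453295 (mm9) and was dim. It gave 13.3 and 23.0 in the cDKO RNA of the male and female arrays, against 22.4 and 48.7 in the control RNA, and was not well above background in the male cDKO RNA. Within each array the cDKO RNA was the lower one. Across arrays the groups overlapped, since the female cDKO RNA was brighter than the male control. The log2 ratios were -0.15 and -0.59, with a mean of -0.37 ± 0.31 (SD, n = 2), a 95% interval of -0.74 to -0.0043 and an adjusted p of 0.316 (limma). The mean was -0.92 from the deposited processed signals, again not called. Hspb3 was kept through the control channel, since the filter asked for signal in 1 group only.

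Hspb7 is the cardiovascular member, known from heart and striated muscle, where its protein binds filamin C. Its probe lies at chr4:140980355-140980414 (mm9) and was printed on 10 spots per array, of which 10 (male array) and 8 (female array) were used. The median processed signals were 181.9 and 140.5 in the cDKO RNA of the male and female arrays, against 270.5 and 277.9 in the control RNA. Both cDKO RNAs were below both controls. The log2 ratios were -0.41 and -0.87, with a mean of -0.64 ± 0.33 (SD, n = 2), a 95% interval of -1.01 to -0.27 and an adjusted p of 0.0498 (limma), just inside the threshold. The call was lost in 6 of 9 alternatives, and the direction was kept in all of them.

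The 10 Hspb7 spots give the spot-to-spot error of an array. The log2 ratios of single spots ran from -0.475 to -0.316 (SD 0.057) for the male array and for the female array from -0.940 to -0.824 (SD 0.046). The ranges did not overlap, so the arrays differed by more than the spread of spots. The spots of an array share their RNA and are not replicates of a condition.

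Hspb8 encodes HSP22, which with the cochaperone BAG3 sorts damaged filamin and other proteins to chaperone-assisted autophagy. Its probe lies at chr5:116859063-116859122 (mm9) and gave 8348 and 5821 in the cDKO RNA of the male and female arrays, against 10544 and 8359 in the control RNA. Across arrays the male cDKO and the female control were nearly equal, and the groups did not overlap. The log2 ratios were -0.35 and -0.50, with a mean of -0.42 ± 0.11 (SD, n = 2), a 95% interval of -0.77 to -0.075 and an adjusted p of 0.204 (limma).

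Hspb1 encodes HSP25, the mouse counterpart of human HSP27, a target of the kinase MAPKAPK2 that acts on actin filaments. Its probe lies at chr5:136365366-136365425 (mm9) and gave 46629 and 32276 in the cDKO RNA of the male and female arrays, against 52088 and 43652 in the control RNA. No spot was saturated. Within each array the cDKO RNA was the lower one. Across arrays the groups overlapped, since the male cDKO RNA was brighter than the female control. The mean log2 ratio was -0.33 ± 0.26 (SD, n = 2), with -0.15 (male array) and -0.52 (female array), a 95% interval of -0.69 to 0.029 and an adjusted p of 0.373 (limma).

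Cryab encodes alpha-B-crystallin, a lens protein that also protects desmin filaments in muscle, and it was measured by 2 probes. The brighter probe, at chr9:50564566-50564625 (mm9), gave 8943 and 7109 in the cDKO RNA of the male and female arrays, against 10486 and 8294 in the control RNA. The groups overlapped. The log2 ratios were -0.19 and -0.17, with a mean of -0.18 ± 0.010 (SD, n = 2), a 95% interval of -0.53 to 0.17 and an adjusted p of 0.691 (limma). The other probe, at chr9:50561458-50561517 (mm9), had a mean of -0.21 ± 0.14 (SD, n = 2) and an adjusted p of 0.630. With each array centred on its median and no loess, the mean of the brighter probe was 0.00044.

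Of the other alpha-crystallin genes, Cryaa, the lens partner of Cryab, had log2 ratios of -0.17 and -0.62 on the male and female arrays, with an adjusted p of 0.283 for the mean of -0.39. Hspb9, a testis member, had -0.094 and 0.044 with an adjusted p of 0.973. Odf1, a sperm tail protein, did not pass the filter on dim probes and was not tested.

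Hspb6 stood below each of the other 6 genes on both arrays. The difference of log2 ratios, Hspb6 minus the other gene, ran from -1.81 (Hspb1) to -1.30 (Hspb2) in the male comparison and from -1.83 (Cryab) to -1.13 (Hspb7) in the female one. These differences were not tested. In the order of mean log2 ratios, Hspb2 and Hspb7 were next, and the 95% intervals of the 6 genes after Hspb6 overlapped one another. The interval of Hspb6 overlapped none of them.

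The arrays were closer for Hspb6, Hspb2 and Cryab than for the other 4 genes. The female minus male difference of log2 ratios was -0.46 for Hspb7, -0.44 for Hspb3, -0.37 for Hspb1 and -0.15 for Hspb8, and it was -0.050 for Hspb6, 0.0028 for Hspb2 and 0.015 for Cryab. With 1 array per sex these differences were not tested.

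The clients and partners of the small heat shock proteins were read from lists of named genes, to set the 7 genes beside the rest of the chaperone system. Of 10 intermediate filament, filamin and Z-disc genes, 5 fell and 0 rose, with a median log2 ratio of -0.46. Synpo2, an actin-binding Z-disc partner of BAG3, fell by 4.45 ± 0.37 (SD, n = 2) on the log2 scale and Ldb3, a Z-disc scaffold, fell by 2.97 ± 0.12. With the mean of all probes of a gene in place of the brightest, these values were -2.86 for Synpo2 and -1.85 for Ldb3. Synm, the filament protein synemin, fell by 2.25 ± 0.11, and Des, the muscle filament desmin, fell by 1.64 ± 0.38. Flnc, the filamin that HSPB7 binds, had a mean log2 ratio of -0.13 and did not pass the test.

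The other chaperones were read in the same way. Over 6 lists (BAG cochaperones and assisted autophagy, HSP70 and HSP110, HSP40, HSP90 and cochaperones, organelle chaperones and heat shock factors), 55 of 56 genes were tested. Of these 0 fell and 1 rose, beside 2.27% called lower and 2.18% called higher over all genes, with a median log2 ratio of 0.073 and a range of -0.59 to 0.63. The gene that rose was Hspa12b, an atypical HSP70 known from endothelium, at 0.63 ± 0.13 (SD, n = 2) with an adjusted p of 0.0429 (limma), and its call was lost in 5 of 9 alternatives. Bag3, the partner of HSPB8, had log2 ratios of 0.58 and 0.13 on the male and female arrays and an adjusted p of 0.349.

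By list, 0 of 10 BAG and autophagy genes passed, with a median log2 ratio of 0.19. The largest values were 0.46 for Bag6, 0.38 for Bag1 and -0.59 for Bag2. Bag2, a cochaperone that inhibits the ligase CHIP, had an adjusted p of 0.0616 (limma) and was called lower in 4 of 9 alternatives. Among the HSP70 and HSP110 genes 1 of 10 was called, the median was 0.13, and the others named were Hspa1a, the heat-inducible HSP70, at 0.32, Hspa12a at 0.31 and Hspa14 at 0.19. In the HSP40 list, whose members stimulate HSP70, 0 of 10 passed, with a median of -0.013. Its named genes were Dnajb5 at -0.43, Dnajb4 at -0.37, Dnajb1 at 0.29 and Dnajb2 at 0.26.

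Of the HSP90 genes and their cochaperones 0 of 10 passed, with a median log2 ratio of 0.13 and values of 0.53 for Fkbp5, 0.46 for Hsp90ab1, 0.29 for Fkbp4 and 0.22 for Unc45a, the myosin chaperone. In the organelle list 0 of 10 passed, with a median of 0.0064 and values of 0.51 for Calr, 0.32 for Hspa5, 0.29 for Hyou1 and -0.26 for Trap1. Of the heat shock factors and their binding protein 0 of 5 passed, with a median of -0.017. Hsf1, the factor that drives heat-induced transcription, was at 0.18, Hsf4 at 0.24, Hsf2 at -0.14 and Hsbp1 at -0.20.

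Of the kinases that phosphorylate small heat shock proteins, 11 of 12 were tested, and 1 fell, with a median log2 ratio of 0.12. Prkg1, the cyclic GMP-dependent kinase of smooth muscle that phosphorylates HSPB6, fell by 1.24 ± 0.17 (SD, n = 2) on the log2 scale, with an adjusted p of 0.000225 (limma). Its log2 ratios were -1.12 (male array) and -1.36 (female array), and the call was lost in 2 of 9 alternatives. The catalytic subunits of protein kinase A, Prkaca and Prkacb, had 0.35 and -0.36 and did not pass. Mapkapk2, the kinase of HSPB1, had 0.19, and Mapk11, a p38 kinase upstream of it, had 0.62 with an adjusted p of 0.0504.

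**Figure D3:**
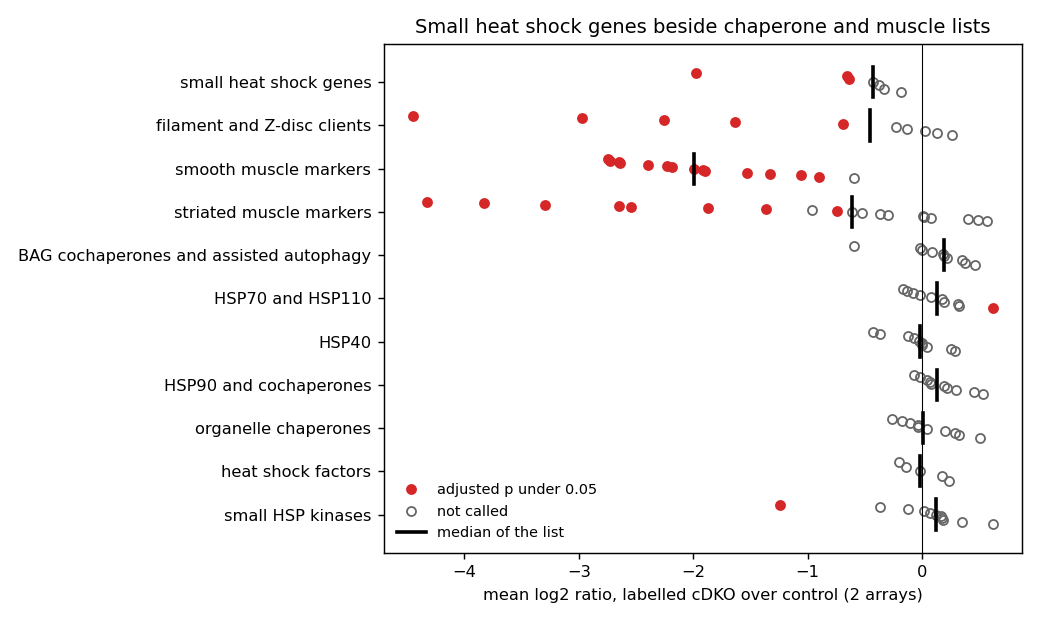
Mean log2 ratio of labelled cDKO over control on 2 arrays (x axis) for each tested gene of 11 lists (rows), with filled points for an adjusted p under 0.05, open points for genes not called, and a black line at the median of each list. The small heat shock genes spread from -1.98 to -0.18, the smooth muscle markers lie further left with a median of -1.99, and the other chaperone lists sit around 0.

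Markers of smooth and striated muscle, fibroblasts, kidney and endothelium were called in labelled cDKO ureters, and their part in the small heat shock values was not tested. In bulk RNA, fewer cells of a type and less RNA per cell cannot be told apart. Of 15 smooth muscle markers 14 fell and 0 rose, with a median log2 ratio of -1.99. The calponin-family and contractile genes Tagln, Actg2, Acta2 and Myh11 had -2.75, -2.73, -2.65 and -2.64. The one marker not called was Smtn, at -0.59 with an adjusted p of 0.0535.

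Of 20 striated muscle markers 19 were tested, and 8 fell and 0 rose, with a median of -0.62. The other 11 tested genes were not called, and the list ran up to 0.57. Myh6, Ckm, Tnnt2 and Acta1, known from heart and skeletal muscle, had the lowest values, -4.33, -3.83, -3.29 and -2.65. With the mean of its probes, Myh6 was at -2.79. The summed processed signal of the tested striated markers was 32507 and 25395 in the cDKO RNA of the male and female arrays, against 193298 and 142407 in the control RNA. Myog, which marks skeletal muscle cells in formation, did not pass the filter on dim probes.

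Some other marker lists had calls in the opposite direction. Of 8 fibroblast markers 6 rose and 0 fell, with a median of 0.76, among them Col1a1 at 1.27 and Col1a2 at 1.22. Col1a1 had 1.87 (male array) and 0.67 (female array), and its call was lost in 3 of 9 alternatives. Their summed processed signal was 481614 and 426060 in the cDKO RNA, against 240671 and 213480 in the control RNA. Of 12 kidney markers 9 were tested, and 5 rose and 0 fell, with Lhx1 at 2.06, Six2 at 1.86 and Pax8 at 1.56. The other 4 tested were not called, and each was higher on the male array and lower on the female array. The Lhx1 value came from a probe that was not well above background in the female control RNA. A filter in both channels drops that probe, and another Lhx1 probe then gave 0.70. The processed signals gave 3.53. The summed signal of the tested kidney markers was 15137 and 7723 in the cDKO RNA, against 7232 and 7261 in the control RNA. Nphs1, Slc12a1 and Umod did not pass the filter on dim probes.

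Of 8 endothelial markers 3 rose, Plvap at 0.97, Vwf at 0.85 and Cdh5 at 0.68, and these calls were lost in 3, 4 and 5 of 9 alternatives, the processed signals among them for all 3. The list had a median of 0.27 and summed signals of 47485 and 31751 in the cDKO RNA against 36037 and 25817 in the control RNA. Of 9 neuronal and glial markers tested 1 rose, Fabp7 at 0.63, whose call was lost in 5 of 9 alternatives. The sums were 16769 and 11291 in the cDKO RNA against 12567 and 10841 in the control RNA. Of 12 urothelial markers 0 passed the test, with a median of 0.18 and sums of 477755 and 384116 in the cDKO RNA against 387247 and 319885 in the control RNA. The 7 small heat shock genes summed to 77654 and 54324 in the cDKO RNA, against 120675 and 92484 in the control RNA.

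The genes whose pair of log2 ratios lay nearest to that of Hspb6, by Euclidean distance over the 2 arrays, were Tnnt1 at 0.081, Mylk at 0.090 and Ckb at 0.117. Tnnt1 is a troponin of slow skeletal muscle, with log2 ratios of -2.00 and -2.07 on the male and female arrays. Mylk, the myosin light chain kinase that starts smooth muscle contraction, had -1.87 and -1.97. Ckb, the brain-type creatine kinase, had -1.89 and -1.91. The likeness rests on 2 values per gene.

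Genes beside the 7 on their chromosomes were read to see how far the lower values extended. Hspb2 and Cryab neighbour each other, and the difference of their log2 ratios, Hspb2 minus Cryab, was -0.47 (male array) and -0.48 (female array). Among 36 neighbours that are not themselves small heat shock genes, the 3 nearest measured on each side, 1 fell and 1 rose. Over all genes 2.27% were called lower and 2.18% higher. Ccdc60, beside Hspb8, had a mean log2 ratio of -0.92 with an adjusted p of 0.00308, and Snx18, beside Hspb3, had 0.75 with an adjusted p of 0.0140 (limma). Around Hspb6, the measured neighbours ran from -0.16 for U2af1l4 to 0.51 for Prodh2 in mean log2 ratio, and 0 of 6 passed the test.

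**Figure D4:**
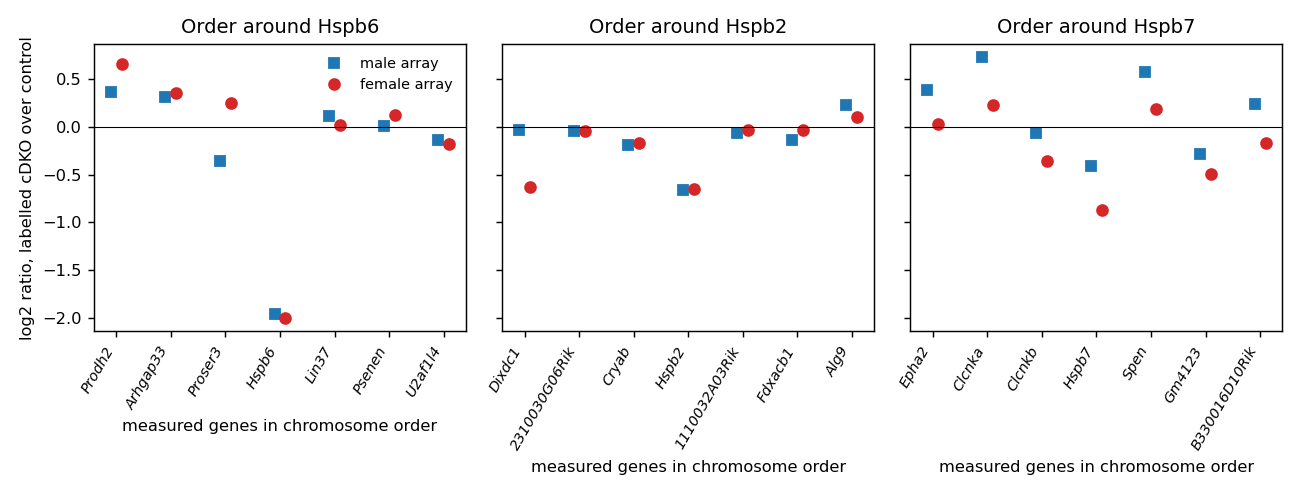
Log2 ratio of labelled cDKO over control (y axis) for Hspb6, Hspb2 and Hspb7 and the 3 measured genes on each side, in chromosome order (x axis, not to distance), with squares for the male array and circles for the female array. Hspb6 stands near -2, and its neighbours lie from -0.36 (Proser3, male array) to 0.66 (Prodh2, female array). Cryab lies above its neighbour Hspb2 on both arrays.

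Over 10 settings, the reported one included, the mean log2 ratio of Hspb6 stayed between -1.98 and -1.85 and was called in 9, with adjusted p-values (limma) from 4.40e-14 to 0.144. Hspb2 was called in 6 and Hspb7 in 4 of the 10.

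**Figure D5:**
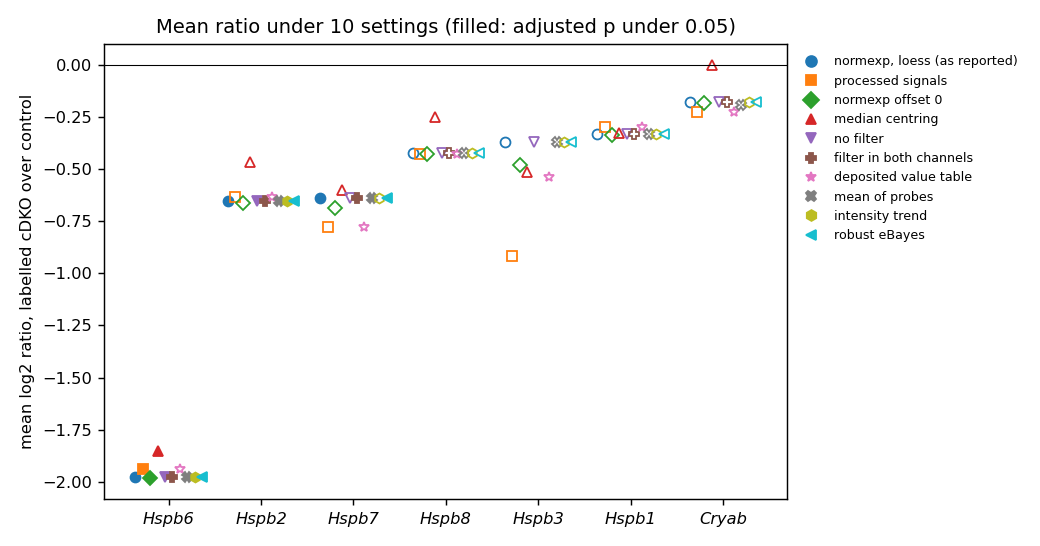
Mean log2 ratio of labelled cDKO over control (y axis) of each gene (x axis) under 10 settings, with 1 symbol per setting, filled where the adjusted p was under 0.05 and open otherwise. Hspb6 lies between -1.98 and -1.85 throughout, and the highest symbol, for Cryab with median centring, is at 0.00044.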

How the data were processed

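Ureter RNA of cDKO and control embryos was measured on 2 arrays. Per the file headers, Agilent Feature Extraction 10.7.3.1 wrote a mean and a local background intensity per channel, a processed signal intensity that is background-subtracted and dye-normalized, a log10 ratio of red over green, and flags for outlier, saturated and background spots. A value table deposited by the authors holds a score of unstated scale. Compared with the scanner files, its values were signed folds, cDKO over control, of processed signals raised to a minimum (26.8 in replicate 1, 20.3 in replicate 2), within 0.01 log2. Both column medians were 1. Probe coordinates are on mm9.

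In limma 3.58.1 (R 4.3.3) the background was removed from the mean intensities by normexp with an offset of 50, and each array was normalized by loess with control and outlier spots at weight 0. Spots of a probe were averaged. A probe was kept if the cDKO RNAs of both arrays, or both control RNAs, were well above background for it, and 29274 probes were tested. Ratios were turned to cDKO over control, and their mean was tested against 0 with lmFit and eBayes (two-sided, Benjamini-Hochberg over all tested probes, threshold 0.05), with 1 residual degree of freedom beside a prior of 13.9. The test therefore rests mostly on the variance pooled over probes. A gene is its brightest kept probe. Symbols came from the accession through a RefSeq table (GRCm38.p6) for 26412 probes and otherwise from the files. The fit was tested on simulated data.

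The genes named are the 7 members with all their probes, the other alpha-crystallin genes, up to 4 genes of each other list with the largest mean log2 ratio in size and the same direction on both arrays, the chromosome neighbours, and the 3 genes nearest to Hspb6. Some genes that this rule takes are not reported here. Flnc, Mapkapk2, Smtn and markers not tested were named after their values were seen. The members and lists were chosen with earlier results of these data known. Other settings were the processed signals, normexp offset 0, median centring, 2 other filters, the deposited value table, the mean of probes, an intensity trend, robust eBayes and each array alone.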

Additional observations from a re-analysis of the deposited data

Results flagged for a closer look

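Hspb9 had opposite signs on the arrays, with log2 ratios of cDKO over control of -0.094 (male array) and 0.044 (female array). Both values are near 0 and come from a dim probe. Its processed signals were 60.1 and 51.0 in the cDKO RNA of the male and female arrays, against 72.7 and 48.4 in the control RNA. The female minus male difference of the log2 ratios was 0.138, and it was not tested, since each sex had 1 array. The Hspb9 mean of -0.025 did not pass the test (limma, adjusted p 0.973).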

How the results depend on the processing

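Genes called numbered 1042 as reported (511 higher and 531 lower), 1599 with an intensity trend (936 higher and 663 lower), 343 from the processed signals (134 higher and 209 lower), 320 with median centring (163 higher and 157 lower) and 0 from the deposited table by limma, where 2434 had an unadjusted p below 0.05. Higher calls made up 49.0% as reported, 39.1% with processed signals and 58.5% with the trend. Members called were 3 as reported, 1 with median centring, with offset 0 and with processed signals, and 0 with the deposited table by limma, where 4 had an unadjusted p below 0.05. Genes called in the other lists were 44 as reported, 28 with processed signals and 0 with the deposited table, which also left 0 of the 14 smooth muscle markers called lower. Hspb6 lost its call with the deposited table (-1.94, adjusted p 0.144). Hspb2 lost it with the deposited table (-0.63, adjusted p 0.381), processed signals (-0.63, 0.242), offset 0 (-0.66, 0.0555) and median centring (-0.47). Hspb7 lost it with the deposited table (-0.78, adjusted p 0.420), processed signals (-0.78, 0.204), the trend (-0.64, 0.0681), no filter (-0.64, 0.0836), offset 0 (-0.69, 0.0672) and median centring (-0.60). The cause of these losses was not tested. Median centring turned Cryab to 0.00044 (male array 0.33, female array -0.33). It moved the median of all genes to 0.065 (male array 0.22, female array -0.024) and left 4 of 7 members lower on both arrays.

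On 1 array alone, the log2 ratio ran from -2.00 to -1.95 for Hspb6, -0.66 to -0.65 for Hspb2, -0.87 to -0.41 for Hspb7, -0.50 to -0.35 for Hspb8, -0.59 to -0.15 for Hspb3, -0.52 to -0.15 for Hspb1 and -0.19 to -0.17 for Cryab. Counts of calls were not computed from 1 array, which leaves no residual degrees of freedom. Hspb3 had no value with a filter in both channels, where it was not well above background. For other named genes, 55 values under other settings lost a call, 12 gained one and 635 did neither. The 635 include values of 1 array alone, which have no adjusted p and could neither lose nor gain a call. Among values from both arrays 0 reversed in sign. For genes not called, the sign on 1 array alone was not compared. Each array pairs a cDKO RNA with its control RNA in 1 ratio, so the reported test is itself paired, and no further block was fitted. Dimness over background limits Hspb3, whose signal was 1.87 to 3.82 times its background. The tested Cryaa probe, at 2.31 to 3.93 times, and Hspb9, at 3.98 to 5.24 times, were dim as well.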
